A study of Mus musculus with 8 samples.

Results

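The alpha and beta T cell receptor variable segments were taken from a table of estimated counts in splenic CD8+ T cells. Members were the rows whose symbol starts with Trav or Trbv followed by a number and whose estimated counts summed to at least 10 over the 8 libraries. This gave 139 segments, 114 alpha (Trav) and 25 beta (Trbv), of 55291 rows. Another 26 rows matched the symbol pattern but stayed below that sum, 22 of them at 0 in every library, and the highest of them summed to 8. The table compared 4 libraries titled ATF4 overexpression (ATF4OE below), with the genotype label ATF4 Tg/Tg, with 4 libraries labelled WT. The design text names the mice of the series ATF4Tg/Tg or E8IcreATF4Tg/Tg, which differs from the sample labels, so WT is used here only as the labels give it. All cells came from spleens of naïve mice, were enriched with a magnetic negative isolation kit, and the labels name no sort. Polyadenylated RNA was read as short paired ends, so a variable segment is seen only where a read falls in it. No label states that each library is a different mouse. Each p-value measures the spread between these samples, which may be technical.

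A T cell receptor chain is made when a variable segment is joined to a joining segment, for beta also through a diversity segment, by the Rag1 and Rag2 recombinase in the thymus. The joined segment is then transcribed with a constant region, Trac for alpha and Trbc1 or Trbc2 for beta. Conventional T cells each use their own combination, so a population shows broad usage of many segments. Innate-like T cells are the exception: invariant natural killer T (NKT) cells share an alpha chain of Trav11 joined to Traj18, and mucosal-associated invariant T (MAIT) cells share one of Trav1 joined to Traj33. The mouse alpha locus carries duplicated blocks, whose copies have the letter d or n in their names, and segments with dv in the name can also serve the delta chain. E8I-Cre is a driver from a Cd8a enhancer that acts in mature CD8+ T cells.

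The alpha members lay on chromosome 14 between 52427928 and 53977678, from Trav1 to Trav23, and the beta members on chromosome 6 between 40891229 and 41558452, from Trbv1 to Trbv31 (GENCODE M21, GRCm38). Of the alpha members, 36 carried the letter d and 29 the letter n, and 10 were dv segments. GENCODE annotates 9 members as pseudogenes, 6 alpha and 3 beta.

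Trav11 and Trav11d are shown first because the clearest change was in their family and because their reads cannot be told apart. The V exon (the exon that encodes most of the variable domain) of Trav11d was 290 bases, chr14:52824623-52824912 on the plus strand, GENCODE M21 transcripts on GRCm38. Its last in-frame cysteine codon is in capitals. The coding sequence of Trav11, whose V exon lies on the plus strand at 53519569 to 53519859 of chromosome 14, differed from that of Trav11d at 0 of the bases they share and was 1 base longer.
Trav11d: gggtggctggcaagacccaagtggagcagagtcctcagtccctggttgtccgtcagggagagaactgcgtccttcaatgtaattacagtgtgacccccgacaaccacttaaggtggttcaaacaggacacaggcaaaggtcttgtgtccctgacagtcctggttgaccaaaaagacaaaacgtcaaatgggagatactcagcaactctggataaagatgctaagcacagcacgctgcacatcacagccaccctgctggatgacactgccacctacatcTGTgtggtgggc

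Trav6-3 and Trav6d-3 show the opposite case, a pair told apart by a single base. The last 60 bases of their V exons are given, chr14:53430318-53430377 for Trav6-3 and chr14:52726860-52726919 for Trav6d-3, both on the plus strand. The capital marks the 1 base that differs between the 2 coding sequences.
Trav6-3: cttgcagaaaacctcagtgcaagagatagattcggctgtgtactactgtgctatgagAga
Trav6d-3: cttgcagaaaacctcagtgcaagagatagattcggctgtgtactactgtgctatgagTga

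Trbv3, Trbv4, Trbv14, Trbv26 and Trbv29 are the 5 beta segments with the lowest adjusted p-values for level in the results below. The last 60 bases of their V exons are given, where capitals mark the last in-frame cysteine codon, near which the joined sequence begins. They lie on the plus strand at chr6:41048769-41048828, chr6:41059827-41059886, chr6:41135557-41135616, chr6:41227934-41227993 and chr6:41271822-41271881, in that order. Among the beta V exons with a sequence, none was closer to another than 91.8% identity, that of Trbv13-2 to Trbv13-3.
Trbv3: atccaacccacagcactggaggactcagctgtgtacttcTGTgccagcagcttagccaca
Trbv4: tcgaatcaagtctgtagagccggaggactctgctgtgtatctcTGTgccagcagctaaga
Trbv14: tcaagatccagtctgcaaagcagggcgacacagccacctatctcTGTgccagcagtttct
Trbv26: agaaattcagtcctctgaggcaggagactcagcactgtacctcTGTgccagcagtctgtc
Trbv29: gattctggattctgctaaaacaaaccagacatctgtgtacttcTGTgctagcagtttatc

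Libraries held 93478686 to 125974143 estimated counts, of which 45975 to 70821 were on the members. Atf4 stood at 286, 308, 165 and 165 CPM in WT replicates 1 to 4 and at 445, 427, 228 and 212 CPM in ATF4OE (CPM, counts scaled to a common library size after TMM normalization over all genes, as edgeR gives it). Within replicates 1 and 2, and within replicates 3 and 4, both ATF4OE libraries were above both WT libraries, while the groups overlapped over all 8. Its log2 fold change was 0.51 ± 0.31 (SE, n = 4 per group) with an adjusted p of 0.367 in edgeR's quasi-likelihood test, and 0.48 ± 0.05 with an adjusted p of 2.2e-04 with the replicate number as a block. Of the markers of CD8+ T cells, Cd8a (log2 fold change -0.36, adjusted p 0.0133), Cd8b1 (-0.39, adjusted p 0.00546) and Trac fell, and Cd3e (-0.20, adjusted p 0.313 in edgeR) did not pass the test.

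Variable segments took a smaller part of the RNA in the ATF4OE libraries, and the difference in CPM was larger for beta than for alpha. The summed level of all members was 524, 526, 591 and 561 CPM in WT and 417, 434, 455 and 429 CPM in ATF4OE. No library of one group reached the range of the other. Beta segments summed to 368 ± 22.6 CPM in WT and 274 ± 13.9 CPM in ATF4OE (SD, n = 4), again without overlap. Alpha segments summed to 182 ± 13.8 and 160 ± 8.91 CPM, and those ranges overlapped. In bulk RNA, fewer cells that carry a segment and less of its RNA per cell cannot be told apart.

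**Figure D1:**
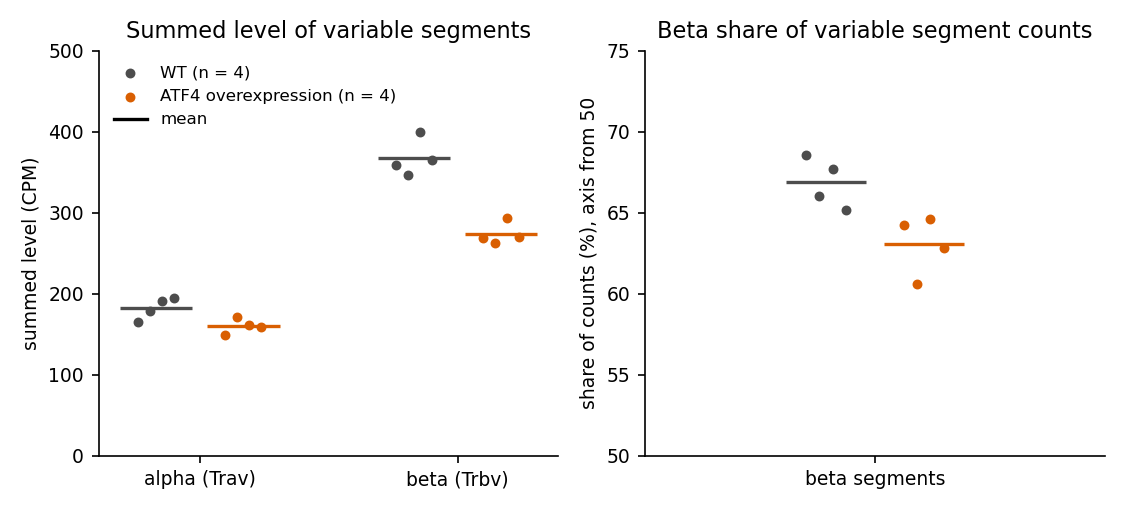
Summed level of alpha and beta variable segments in CPM (left) and the beta share of their counts in percent (right, axis from 50), each point 1 library and each bar a group mean (n = 4). Beta segments sit between 347 and 400 CPM in WT and between 263 and 294 CPM in ATF4 overexpression, whereas the alpha ranges overlap.

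The beta share of all variable segment counts was 68.6%, 66.01%, 67.7% and 65.2% in WT and 64.3%, 60.6%, 64.6% and 62.8% in ATF4OE. Each ATF4OE library was below each WT library, by 3.79 percentage points in the mean. Such summed values carry no p-value here, since the members were chosen with earlier results known. The constant regions moved the same way: Trac had a log2 fold change of -0.26 (adjusted p 0.0402), Trbc1 of -0.37 (adjusted p 0.0183) and Trbc2 of -0.31 (adjusted p 0.0152) in edgeR. The ratio of beta variable counts to Trbc1 plus Trbc2 counts was 0.342 ± 0.015 in WT and 0.320 ± 0.017 in ATF4OE, and that of alpha variable counts to Trac counts 0.304 ± 0.031 and 0.321 ± 0.015 (SD, n = 4). Both ratios overlapped between the groups.

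Of the 7 constant region and CD3 genes, which assemble with the variable chains into the receptor, all 7 had fold changes below 0 and 4 were called lower, against 4.89% of all genes. Cd3d, a signalling subunit, showed the lowest at -0.53 (adjusted p 0.00644). Cd3g and Cd247, 2 further subunits, had values of -0.22 (adjusted p 0.128) and -0.32 (adjusted p 0.0789). Some genes of other cells were higher in the same libraries: 2 of 4 NK cell genes, 2 of 4 myeloid genes and 4 of 6 CD4+ T cell genes were called higher and 0 lower, when 9.16% of all genes were called higher. The summed level of the NK cell genes was 11.3 to 46.5 CPM in WT and 70.8 to 149 CPM in ATF4OE. Corresponding ranges were 15.2 to 63.9 and 86.6 to 213 CPM for the myeloid genes, and 36.1 to 49.2 and 63.7 to 100.2 CPM for the CD4+ T cell genes. Of B cell genes, Cd79a, a subunit of the B cell receptor, was at 2.55 to 11.2 CPM in WT and 18.9 to 52.5 CPM in ATF4OE (log2 fold change 2.37 ± 0.56, adjusted p 0.0245 in edgeR), while Ighm, its heavy chain, had -0.10 (adjusted p 0.721). None of the NK, myeloid or CD4+ T cell genes listed was at 0 in all libraries of either group, and the part of such cells in the lower variable segment levels was not tested.

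On the scale of all genes, 9 variable segments fell and 0 rose, and all 9 were beta segments. They were Trbv1, Trbv3, Trbv4, Trbv12-1, Trbv13-1, Trbv13-3, Trbv14, Trbv26 and Trbv29. Among the 126 members that passed the filter on low counts, that is 9 lower and 0 higher at an adjusted p below 0.05 in edgeR. Of all 16630 genes tested, 4.89% were called lower and 9.16% higher. An unadjusted p below 0.05 was reached by 19 members. All 23 beta segments tested had a log2 fold change below 0, with a median of -0.42, against 73 of 103 alpha segments with a median over the 103 of -0.21 and a median of -0.02 over all genes. In DESeq2 13 members were called lower and 0 higher, when 6.55% of all genes were called lower and 12.8% higher.

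Trbv4 (chromosome 6, plus strand) had the lowest fold change among the beta segments called. Its level was 20.8, 18.4, 18.8 and 16.2 CPM in WT and 11.92, 11.996, 10.96 and 11.38 CPM in ATF4OE. The groups did not overlap, and the 4 ATF4OE libraries lay close together. The log2 fold change was -0.68 ± 0.11 (SE) with an adjusted p of 0.00264 in edgeR, and it was called in all 19 alternative fits, between -0.74 and -0.62. Trbv29 was at 32.1, 28.1, 31.0 and 29.3 CPM in WT and 22.1, 20.2, 20.8 and 18.2 CPM in ATF4OE. This gave a log2 fold change of -0.57 ± 0.09 and an adjusted p of 0.00261 in edgeR, with the call kept in 17 of 19 alternatives.

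Trbv14 was at 16.5, 15.9, 22.3 and 17.7 CPM in WT and 10.8, 11.4, 12.9 and 11.7 CPM in ATF4OE, a log2 fold change of -0.63 ± 0.13 (adjusted p 0.0109 in edgeR). WT replicate 3 was the highest library and the groups did not overlap. Trbv3, among the largest contributors to beta counts, was at 32.3, 28.3, 37.7 and 29.98 CPM in WT and 22.5, 19.3, 26.1 and 20.8 CPM in ATF4OE. Its log2 fold change was -0.53 ± 0.12 with an adjusted p of 0.0171 in edgeR. Trbv26, a smaller segment, was at 8.34, 6.54, 8.34 and 6.68 CPM in WT and 4.57, 4.27, 5.23 and 4.78 CPM in ATF4OE, a log2 fold change of -0.67 ± 0.16 (adjusted p 0.0213). These 3 were also separated between the groups in every library.

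**Figure D2:**
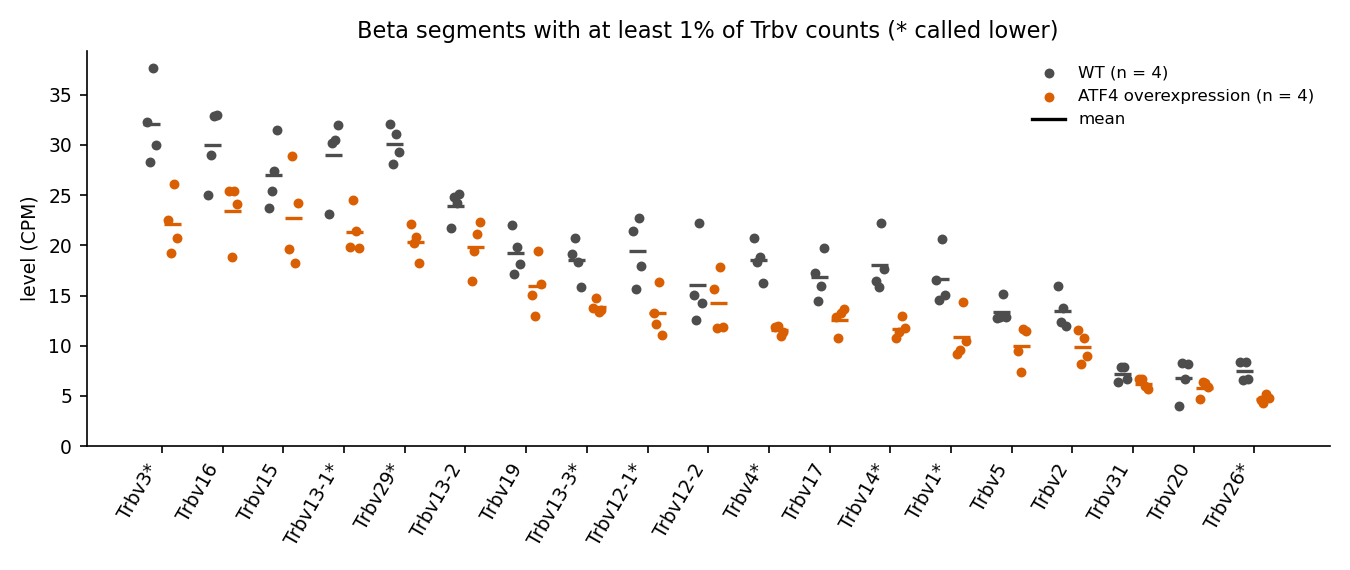
Level in CPM of the 19 beta segments with at least 1% of the Trbv counts, ordered by that share; each point is 1 library and each bar a group mean (n = 4), and an asterisk marks the 9 segments called lower. The segments called run from Trbv3, the highest share, to Trbv26, the lowest of the 19, and the ranges of Trbv15 and Trbv12-2 overlap.

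The other segments called were closer to the threshold. Trbv1 had a log2 fold change of -0.62 ± 0.18 (adjusted p 0.0432), Trbv12-1 of -0.55 ± 0.16 (adjusted p 0.0445), Trbv13-1 of -0.44 ± 0.12 (adjusted p 0.039) and Trbv13-3 of -0.41 ± 0.11 (adjusted p 0.0318). Trbv1, Trbv12-1, Trbv13-1 and Trbv13-3 were called lower in 10, 9, 11 and 8 of 19 alternatives. Beta segments of similar size were not called: Trbv15 had -0.25 (adjusted p 0.365), Trbv12-2 had -0.16 (adjusted p 0.701) and Trbv19 had -0.28 (adjusted p 0.246). With the replicate number as a block 15 members were called lower, when 13.5% of all genes were. The block added Trbv2, Trbv5, Trbv13-2, Trbv16, Trbv17 and the alpha segment Trav12-2, whose blocked log2 fold changes were -0.46, -0.44, -0.28, -0.36, -0.41 and -0.48. 4 libraries (WT replicates 1 and 4, ATF4OE replicates 1 and 2) had fewer than 250 genes with an estimated count from 2 up to 3. With them set aside, a choice made after the data were seen, Trbv4 and Trbv13-1 were called lower and Trav11d and Trav12d-3 higher. Leaving out 1 library at a time gave 3 to 8 members called lower, the fewest without ATF4OE replicate 4 (3), WT replicate 3 (4), WT replicate 1 (5) and ATF4OE replicate 1 (5). Without WT replicate 2, WT replicate 4 or ATF4OE replicate 2, 6 were called lower. Without ATF4OE replicate 2, Trav11d was also called higher, when 1431 of 17158 genes were. Trbv4, Trbv14 and Trbv29 were called in each of these 8 fits. Over all 17078 to 17359 genes tested in them, 518 to 677 were called lower.

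In 17 of the 126 tested members (13.5%) every ATF4OE library was below every WT library on the CPM scale. The share was 8.67% of all genes tested. In 0 members was every ATF4OE library above, against 13.4% of all genes. Trbv31, the one segment on the minus strand, had a log2 fold change of -0.21 (adjusted p 0.44) and overlapped between the groups.

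Usage asks a different question, the share of a segment among all variable segment counts, and on that scale the groups were closer. The effective number of beta segments, the exponential of the Shannon entropy of their shares, was 18.1 ± 0.23 in WT and 18.1 ± 0.10 in ATF4OE (SD, n = 4). The highest beta segment of a library held 9.04% ± 0.30 of beta counts in WT and 9.58% ± 0.98 in ATF4OE. Per kilobase of annotated exon, Trbv29, Trbv13-1 and Trbv16 had the highest mean counts over the 8 libraries, 7995, 7746 and 7616. Among beta segments with at least 1% of beta counts, the share ran from Trbv3 at 8.38% to Trbv26 at 1.88%, not corrected for length.

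When counts were scaled to the variable segment total of each library, 0 beta segments were called. Over the 126 tested members, 1 was higher and 0 were lower in edgeR, and 5 had an unadjusted p below 0.05. This scaling moves the median of all genes to a log2 fold change of 0.32, and 32.9% of all genes were then called higher and 1.08% lower. Members are therefore read against the variable segment total and not against other genes.

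Of the 19 beta segments with at least 1% of beta counts, Trbv4 had the lowest usage fold change. Its share of all variable counts was 3.97%, 3.50%, 3.19% and 2.90% in WT and 2.85%, 2.76%, 2.41% and 2.65% in ATF4OE. The highest ATF4OE library was just under the lowest WT library. Its usage log2 fold change was -0.34 ± 0.13 with an adjusted p of 0.0592 in edgeR. Trbv14 held 3.15%, 3.02%, 3.77% and 3.15% in WT and 2.59%, 2.62%, 2.84% and 2.73% in ATF4OE, a usage log2 fold change of -0.28 ± 0.11 (adjusted p 0.0758). Trbv26 had a usage log2 fold change of -0.33 ± 0.16 (adjusted p 0.145), also without overlap. With the replicate block, 4 beta segments were called lower in usage, when 2.22% of all genes were: Trbv4 (adjusted p 0.0249), Trbv29 (0.0275), Trbv14 (0.042) and Trbv3 (0.0487). Against beta counts alone 0 segments were called, and Trbv4 had a log2 fold change of -0.26 (adjusted p 0.117).

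Of the 126 tested members, groups did not overlap in usage for 4 that were lower, Trbv4, Trbv14, Trbv26 and Trav9-1, against 1.52% of all genes. They did not overlap for 2 that were higher, Trav9d-3 and Trav13-5, against 34% of all genes. Trav9d-3 has a copy with an identical V exon, Trav9n-3, and their sum overlapped between the groups. That sum had a usage log2 fold change of 0.38 (adjusted p 0.145 in edgeR). Trav9-1 summed with its copies also overlapped, at -0.31 (adjusted p 0.553). Trav13-5 was among the low members, at 0 counts in WT replicate 1.

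Trav6-3 was the single segment called higher in usage. Its counts were 222, 335, 531 and 428 in WT and 369, 603, 638 and 671 in ATF4OE, and its share of all variable counts was 0.479%, 0.633%, 0.749% and 0.627% against 0.708%, 1.31%, 1.14% and 1.31%. ATF4OE replicate 1 lay within the WT range and the other 3 lay above it. The usage log2 fold change was 0.84 ± 0.25 (p 0.00655, adjusted p 0.0256 in edgeR), while on the CPM scale it was 0.50 (adjusted p 0.277). The log2 fold change was 0.68 to 1.01 over the 19 alternatives, and the call held in 10 of them. It was lost against alpha counts alone (adjusted p 0.0914), within replicates 1 and 2 (adjusted p 0.131), with the 4 libraries short of low counts set aside (adjusted p 0.0672) and on leaving out WT replicate 1, 2 or 4 or ATF4OE replicate 2, 3 or 4. Trav6d-3, which differs by the base shown above, held 0 to 37.4 counts in a library and was not tested.

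Single alpha segments carry the uncertainty that Salmon divides reads between near-identical copies. Of 81 pairs of copies with a sequence, 19 had identical V exons over the bases they share and 39 differed at 5 bases or fewer. In 15 of the 19 identical pairs, some library had 0 counts on one copy beside at least 30 on the other. For Trav13d-2 the counts were 0, 0, 51.9 and 174 in WT and 175, 118, 0 and 0 in ATF4OE. Its identical copy Trav13n-2 had 121, 183, 179 and 0 in WT and 0, 0, 154 and 195 in ATF4OE. Trav13d-2 was called higher in usage within replicates 1 and 2 (adjusted p 0.00193) and lower within replicates 3 and 4 (adjusted p 0.00755), whereas the Trav13-2 copies summed gave a usage log2 fold change of 0.16 (adjusted p 0.575).

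Trav7-2 and Trav7d-2, which differ at 0 shared bases, showed the same: 263 counts of WT replicate 3 were on Trav7d-2, and those of the other 7 libraries were all on Trav7-2. The spread over the libraries of WT and ATF4OE, which includes any difference between the groups, was wider for single alpha segments. Over segments or families with a mean of at least 100 counts, the median coefficient of variation of the share was 25.1% for 65 alpha segments, 13.0% for 21 beta segments and 13.4% for 17 alpha families. Alpha results are therefore given as sums over a family, the segments that share the number after Trav.

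**Figure D3:**
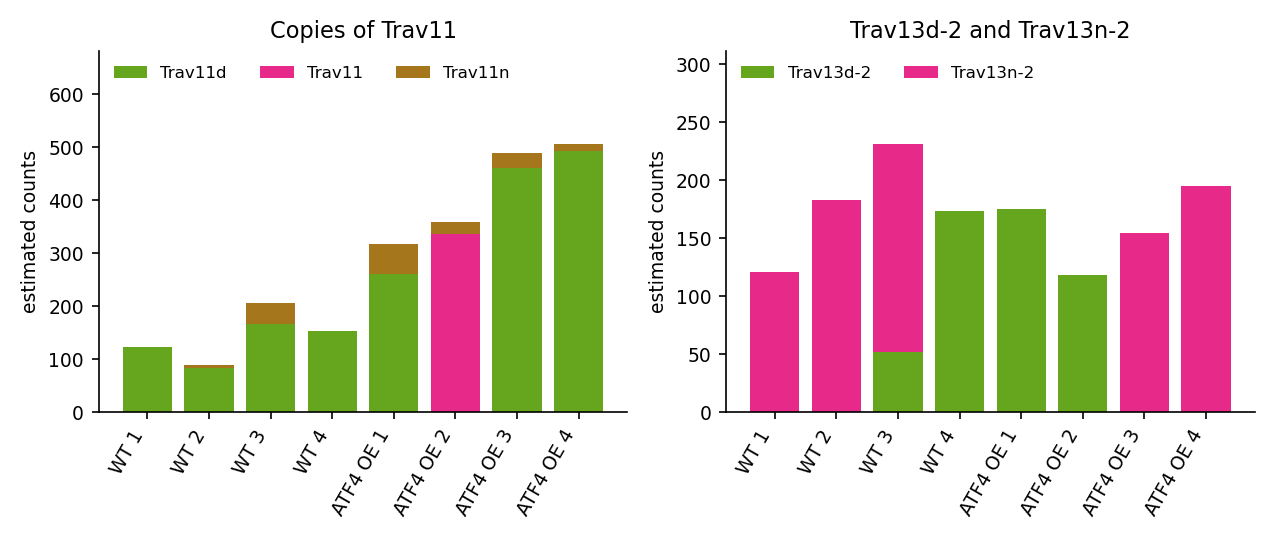
Estimated counts per library of the copies of Trav11 (left) and of Trav13d-2 and Trav13n-2 (right), stacked; each bar is 1 library of WT or ATF4 overexpression (ATF4 OE), replicates 1 to 4. The Trav11 sum is 88 to 205 in WT and 317 to 505 in ATF4 overexpression, while the counts sit on Trav11 in ATF4 overexpression replicate 2 and mostly on Trav11d elsewhere.

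The family of Trav11, the segment of the invariant NKT alpha chain, rose about 3-fold in its share of alpha counts. Its 3 copies summed to 122, 88, 205 and 153 counts in WT and to 317, 359, 489 and 505 in ATF4OE. As a share of alpha counts this was 0.838%, 0.489%, 0.896% and 0.645% against 1.70%, 1.98%, 2.48% and 2.65%. Every ATF4OE library was above every WT library, and the ratio of the means was 3.07. On the usage scale, the share of all variable segment counts, the ratio of the means was 3.45. There the log2 fold change was 1.78 ± 0.28 (SE, n = 4 per group) with a p of 6.5e-05 and an adjusted p of 0.00128 in edgeR.

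Of 39 families tested, Trav11 was the 1 called higher and 0 were called lower, when 33.2% of all genes were called higher and 1.09% lower on this scale. The number with an unadjusted p below 0.05 was 4. On the scale of all genes the Trav11 family stood at 1.31 ± 0.34 CPM in WT and 3.54 ± 0.75 CPM in ATF4OE. There its log2 fold change was 1.44 ± 0.29 (adjusted p 0.00843), 1 family was higher and 8 were lower, when 9.24% of all genes were higher and 4.94% lower. With the replicate block, Trbv3, Trbv4, Trbv14 and Trbv29 were called lower in family usage, when 2.24% of all genes were. The 8 families lower in level were Trav7 and the beta families Trbv1, Trbv3, Trbv4, Trbv13, Trbv14, Trbv26 and Trbv29. The Trav11 call held in all 20 alternative fits, with log2 fold changes of 1.44 to 2.03 and adjusted p-values of 8.6e-09 to 0.0238.

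**Figure D4:**
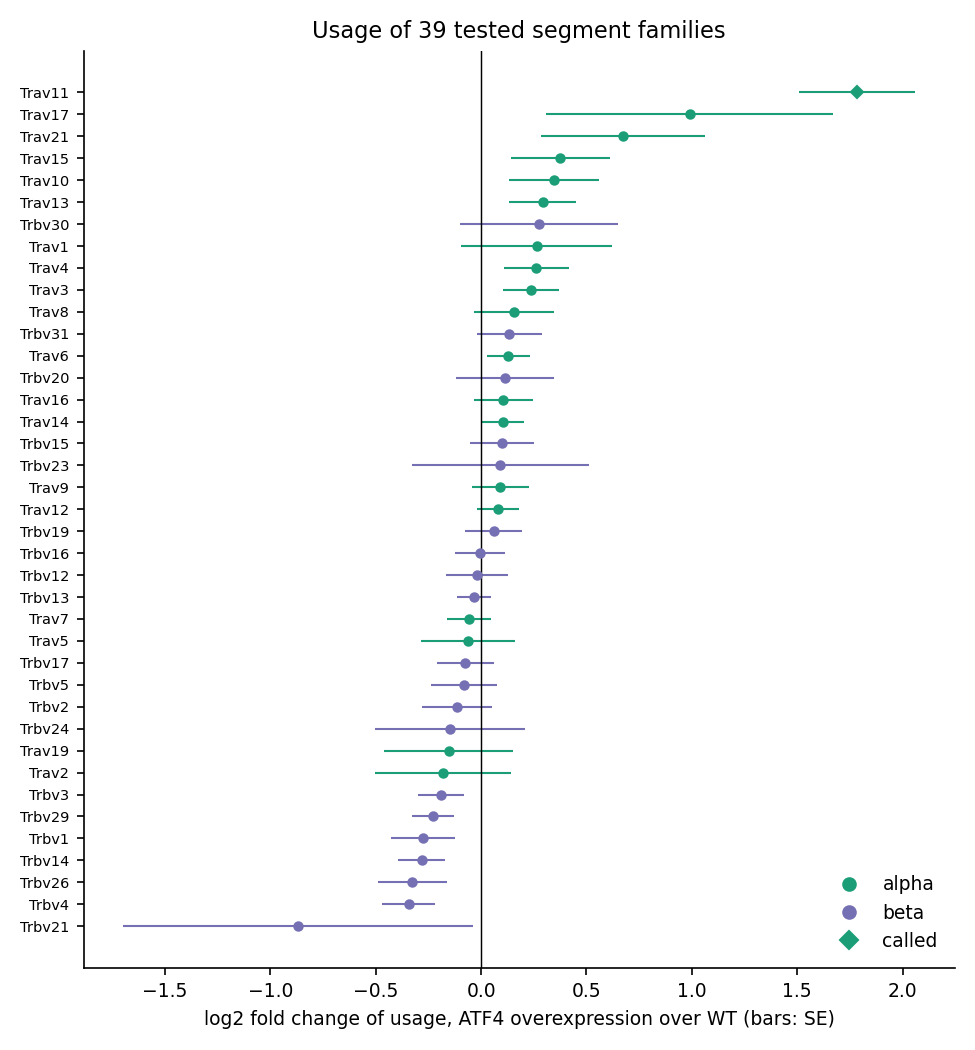
Log2 fold change of usage (share of all variable segment counts), ATF4 overexpression over WT, for the 39 tested families, sorted by fold change; horizontal bars are SE, green alpha and purple beta, and the diamond marks the called family. Trav11 stands at 1.78, and the next family, Trav17, at 0.99 has a wide bar.

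Without the family sum the change was not seen: Trav11d alone had a usage log2 fold change of 1.37 ± 1.09 (adjusted p 0.368), since ATF4OE replicate 2 had 335 counts on Trav11 and 0 on Trav11d. Leaving out that library gave Trav11d a log2 fold change of 1.79 (adjusted p 0.00425). Trav11n, a pseudogene by the GENCODE annotation, held at most 56.8 counts in a library. With copies summed for all segments, a choice added after the data were seen, Trav11 had 1.78 (adjusted p 0.00127) and Trav6-3 had 0.82 (adjusted p 0.03), and no other segment was called.

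Other genes of NKT cells were read from the same libraries. Zbtb16, the transcription factor of innate-like T cells known as PLZF, stood at 1.23, 1.04, 2.98 and 2.23 CPM in WT and at 8.18, 9.16, 13.1 and 14.6 CPM in ATF4OE. It rose by a log2 fold change of 2.59 ± 0.36 (adjusted p 0.00126 in edgeR). Il17rb, the IL-25 receptor chain found on a subset of NKT cells, rose from 0.665 to 1.67 CPM in WT to 8.30 to 13.2 CPM in ATF4OE, with a log2 fold change of 3.26 ± 0.35 (adjusted p 3.1e-04). Klrb1c, the NK1.1 antigen of NK and NKT cells, had a log2 fold change of 1.56 (adjusted p 0.06). Slamf6, a receptor NKT cells need but conventional T cells also carry, had -0.20 (adjusted p 0.137). Traj18 and Traj33 were at 0 in all 8 libraries. Counts by symbol do not record which segments are joined, so the joined NKT or MAIT chain could not be read from them. Of the 8 genes of this list 5 were tested and 2 called higher, against 9.16% of all genes. Its summed level ran from 189.5 to 235 CPM in WT and from 212.5 to 255.6 CPM in ATF4OE, mostly Slamf6. Invariant NKT cells of mice mostly lack CD8. The labels name a negative isolation kit and no sort, and do not state whether such cells remained. The part of such cells in the Trav11 rise was not tested.

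**Figure D5:**
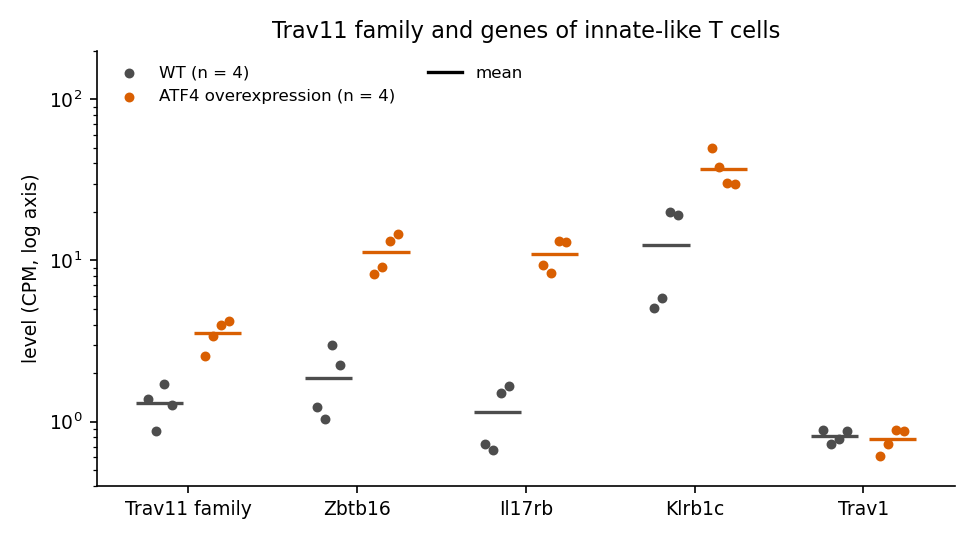
Level in CPM (log axis) of the Trav11 family, of Zbtb16, Il17rb and Klrb1c, and of Trav1; each point is 1 library and each bar a group mean (n = 4). The first 4 have all ATF4 overexpression points above all WT points, and Trav1 overlaps.

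Trav1, the MAIT segment, was at 78, 73, 93 and 106 counts in WT and 76, 77, 108 and 105 in ATF4OE, and the groups overlapped. Its usage log2 fold change was 0.26 ± 0.36 (adjusted p 0.614 in edgeR), and its share of alpha counts 0.449% ± 0.061 and 0.483% ± 0.077 (SD, n = 4).

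The 4 largest alpha families overlapped between the groups. The families with the largest shares of alpha counts were Trav6 (15.0% ± 0.86 in WT and 14.6% ± 1.14 in ATF4OE, 15 members), Trav14 (13.5% ± 0.64 and 13.1% ± 1.54), Trav16 (11.004% ± 1.38 and 10.6% ± 0.65) and Trav12 (10.8% ± 0.40 and 10.3% ± 0.78). None of these 4 was called. Their usage log2 fold changes, over alpha and beta counts together, were 0.08 to 0.13. Their mean shares of alpha counts alone were lower in ATF4OE, where beta took a smaller share of all variable counts. Of the single segments, Trav16n (5.28% of alpha counts), Trav16 (4.11%) and Trav12-2 (3.08%) were the highest, and the 12 highest held 32.5% of alpha counts. Among those 12, Trav6-3 was the 1 called in usage.

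The effective number of alpha families was 12.7, 12.6, 12.6 and 12.7 in WT and 13.1, 13.0, 13.6 and 13.3 in ATF4OE, higher in each library of the latter. Over alpha segments it was 70.9 ± 1.34 and 71.0 ± 2.65 and overlapped. Cutting the alpha locus into 4 stretches of equal length, for the 112 alpha members with a position, left all 4 shares overlapping between the groups. The stretch nearest the joining segments (24 members) held 27.1% ± 0.85 of alpha counts in WT and 26.2% ± 0.42 in ATF4OE, and the farthest (17 members) held 6.91% ± 0.89 and 6.88% ± 0.49. Copies such as Trav7d-2 and Trav7-2 lie in different stretches, so these shares depend on how Salmon divides reads between them. In WT replicate 3 the farthest stretch held 8.16%, of which Trav7d-2 made up 1.15% of alpha counts.

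The dv segments, which the delta chain can share, took 9.09% ± 1.07 of alpha counts in WT and 9.85% ± 0.70 in ATF4OE, with overlap. This sum depends on how Salmon divides reads, since Trav15d-2-dv6d-2 has a copy with an identical V exon but no dv, Trav15n-2. Trav15d-2-dv6d-2 held a mean of 0.161% of alpha counts in WT and 0.738% in ATF4OE. Trav15n-2 held 0.592% and 0.191%. Of the 10 dv segments, 8 had a mean of at least 100 counts and none was called in usage. Trav6-7-dv9 was the largest at 443 to 681 counts a library, with a usage log2 fold change of -0.05 ± 0.18. Trav21-dv12 had 0.67 ± 0.39 (adjusted p 0.209) and Trav13-4-dv7 had 1.15 ± 0.51 (adjusted p 0.107). The delta constant region Trdc rose from 14.5 to 17.8 CPM in WT to 23.1 to 45.5 CPM in ATF4OE, a log2 fold change of 0.99 ± 0.21 (adjusted p 0.0112 in edgeR). Sox13, a factor of gamma-delta T cells, had a log2 fold change of 2.70 (adjusted p 0.00206). Of 5 gamma-delta genes tested 3 were called higher, against 9.16% of all genes, and their summed level was 32.8 to 39.9 CPM in WT and 43.7 to 66.3 CPM in ATF4OE. Its part in the dv shares was not tested.

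Of the genes of recombination, the recombinase was near 0 and 1 gene fell. Rag1 and Rag2 were at 0.114 CPM or less in every library. Dntt, the terminal transferase that adds bases at the joints, was at 8.41, 10.8, 6.33 and 6.21 CPM in WT and 2.32, 2.14, 1.71 and 1.99 CPM in ATF4OE. It fell by 1.96 ± 0.23 on the log2 scale (adjusted p 5.2e-04 in edgeR). The other 10 of the 11 recombination genes tested, among them the end-joining factors Xrcc4 (-0.34, adjusted p 0.0745), Lig4 (-0.18, adjusted p 0.74) and Prkdc (-0.27, adjusted p 0.168), did not pass the test. Pseudogene members took 0.536% ± 0.062 and 0.579% ± 0.164 of variable counts.

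The 13 members that were not tested for low counts were Trav11, Trav12d-1, Trav20, Trav23, Trav4d-4, Trav6d-3, Trav6n-5, Trav7d-2, Trav9d-2, Trav9n-1, Trav9n-2, Trbv10 and Trbv12-3. Trav11, Trav6d-3 and Trav7d-2 are described above with their copies.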

How the data were processed

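The deposited matrix, made by the authors, holds estimated counts by symbol for 8 polyA RNA-seq libraries. The submitters' processing notes name Salmon and the build GRCm38.p6; the annotation release, like the strand setting, is not given in the sources used. All 8 columns were used (0 unused). Counts were rounded for the tests. Levels were tested with edgeR 4.0.16 (quasi-likelihood, TMM; R 4.3.3, limma 3.58.1) over 16630 genes passing edgeR's filter, with Benjamini-Hochberg adjustment over all of them and a threshold of 0.05. Usage used the variable segment total as library size, and families were summed before the fit. DESeq2 1.42.0, limma-voom, other scalings, filters, blocks and left-out libraries were alternatives. Members and gene lists were chosen with earlier results of these data known. Segments named were the beta segments with at least 1% of beta counts, the 12 highest alpha segments, segments called in usage, Trav11, Trav11d, Trav1 and dv segments with a mean of at least 100 counts. Others named (Trav13d-2, Trav13n-2, Trav7-2, Trav7d-2, Trav6d-3, Trav9-1, Trav9d-3, Trav13-5, Trav12d-3, Trav15d-2-dv6d-2, Trav15n-2 and list genes) were chosen after their values were seen, to show copies, non-overlap or list results.

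Replicate numbers are shared by the groups in the labels. Same-numbered libraries deviated together over all genes (r 0.22, 0.199, 0.289 and 0.229), so the block is given where it changes a call. No label names a library set. It was inferred from the column headers, which carry a hyphen in replicates 3 and 4 only. Differently numbered libraries of the same set (replicates 1 and 2, or 3 and 4) correlated about as much (0.157 to 0.254), and over the members alone same-numbered libraries did not (-0.23, -0.47, -0.176 and -0.0445). Libraries of a group differed beyond counting noise (chi-square per degree of freedom at least 38.5), so none was a repeat deposit. On simulated data with log2 changes of 1 and 2, the level fit recovered 63.21% of 106 and 60% of 85 changed genes and the usage fit 51.04% of 96 and 73.68% of 95. Positions were read from the GENCODE M21 annotation on GRCm38 by name, found for 137 members. V exon sequences were read from its transcripts, found for 128 members.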

Additional observations from a re-analysis of the deposited data

Results flagged for a closer look

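In 5 of 132 groups of 4 libraries examined, 1 library stood far from the other 3 of its group in a segment's share of all variable counts; chance alone marks about 1 in 20 groups. Trbv13-1 held 5.642% in ATF4OE replicate 2, against 4.59% to 4.75% in the others. Trbv19 held 4.197% in WT replicate 1, against 3.23% to 3.36%. Trbv29 held 6.131% in WT replicate 1, against 5.23% to 5.34%. Trav11 held 0.7293% in ATF4OE replicate 2 and 0 in the others, the library whose Trav11d count was 0. Trav15d-1-dv6d-1 held 0.1338% in WT replicate 1, against 0.266% to 0.293%.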

How the results depend on the processing

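With the replicate number as a block, 15 of 126 segments were lower in level and 4 in usage. In family usage, 4 of 39 families were lower. Over all genes the shares lower were 13.5%, 2.22% and 2.24%, in that order. With the library set (replicates 1 and 2, or 3 and 4), inferred from the spelling of the column headers, as a block the counts were 15, 3 and 3. Over all genes, 1927 of 16630 were then lower in level, 326 in usage and 329 of 16543 in the family fit. The block changed no call of Trav6-3 or the Trav11 family. Within replicates 1 and 2, 3 segments were higher and 5 lower in level, and 4 higher and 3 lower in usage. Most of these were single alpha copies. Over all 17203 genes tested there, 1161 were higher and 528 lower in level, and 3032 higher and 195 lower in usage. Within replicates 3 and 4, 2 segments were higher and 7 lower in level, and 3 higher and 2 lower in usage. The 7 lower in level were Trav9-4, Trav13d-2, Trbv4, Trbv13-1, Trbv14, Trbv16 and Trbv29. Over all 17073 genes tested there, 2434 were higher and 1365 lower in level, and 7610 higher and 227 lower in usage. Leaving out 1 library gave 0 to 1 higher and 3 to 8 lower in level, 0 to 3 higher and 0 to 1 lower in usage, and 0 to 1 families lower. Over all 17078 to 17359 genes tested in those fits, 1089 to 1431 were higher and 518 to 677 lower in level. In usage 3843 to 5292 were higher and 120 to 171 lower. Usage calls went to 0 higher against the own chain's total; 1 segment was lower with DESeq2, limma-voom or the constant region total, and 1 family with DESeq2 or the constant region total. Choices added after seeing the data gave 2 higher and 2 lower in level and 2 higher in usage without the 4 libraries short of low counts, 2 higher with copies summed, and 8 families lower with TMM scaling. The cause of these differences was not tested.

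In level, 1 or 2 of the tested beta segments were above 0 within replicates 1 and 2 (22 of 24 below 0) or 3 and 4 (21 of 23), without WT replicate 1 (21 of 23), and without WT replicate 3, ATF4OE replicate 1 or the 4 libraries short of low counts (22 of 23 each); the 9 segments called stayed below 0 in every alternative. Trav13d-2, named to show copies, went from a usage log2 fold change of 0.84 in the reported fit to -9.66 within replicates 3 and 4. It was called lower there (adjusted p 0.00755 in edgeR). Among the segments named by rule and the families, the usage values that changed sign were not called. Of these, Trav11d, at 1.37 in the reported fit, moved farthest. Within replicates 1 and 2 the log2 fold changes were 0.03051 for Trbv13-1, -0.07252 for Trbv13-2, 0.01942 for Trbv16, -0.1761 for Trbv19, -0.006858 for Trav14n-1, 0.1385 for Trav14d-3-dv8, 0.0412 for Trav16d-dv11 and 0.01271 for the Trbv12 family. Within replicates 3 and 4 they were 0.04568 for Trbv13-3, -0.08844 for Trbv15, 0.1126 for Trbv5, -0.01781 for Trav16, -0.1727 for Trav15d-1-dv6d-1 and -0.002628 for Trav4-4-dv10. Against the own chain they were 0.009449 for Trbv13-3, 0.07204 for Trbv16, 0.006598 for Trbv17, 5.7e-05 for Trbv5, -0.01505 for Trav16n, -0.03684 for Trav16, -0.06688 for Trav14n-1, and -0.03247, 0.06385 and 0.05075 for the families Trav6, Trbv12 and Trbv13. Without the 4 libraries short of low counts they were 0.01656 for Trbv16, 0.1607 for Trbv17, -0.1069 for Trbv31, 0.06467 for Trbv5, -0.08145 for Trav16, 0.05265 for Trav6-7-dv9 and -0.1019 for Trav15d-1-dv6d-1. limma-voom gave -0.3598 for Trav11d, and TMM scaling -0.2129 for the Trav6 family. Leaving out 1 library gave -0.001659 to 0.1304 for Trbv13-2, -0.1549 to 0.004849 for Trbv13-3, -0.03575 to 0.2097 for Trbv15, -0.06886 to 0.08591 for Trbv16, -0.02337 to 0.1553 for Trbv19, -0.2228 to 0.001603 for Trbv2, -0.05858 to 0.2548 for Trbv20, -0.1595 to 0.04104 for Trbv5, -0.04165 to 0.258 for Trav16, -0.1226 to 0.01864 for Trav6-7-dv9, -0.001117 to 0.178 for Trav14n-1, -0.2119 to 0.09058 for Trav16d-dv11, -0.112 to 0.07101 for the Trbv12 family and -0.06596 to 0.01904 for the Trbv13 family. Low counts limit single alpha segments: 39 alpha members and 2 beta members were at 0 in at least 1 library.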
